A study of Mus musculus with 5 samples.

Results

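Cytosolic ribosomal proteins are the protein subunits of the ribosome that translates nuclear-encoded messenger RNA, and their transcripts were followed here on arrays of microvesicle and cell nucleic acid. The genes were chosen by symbol alone (Rpl, Rplp or Rps with a protein number, and Rpsa, without the Rps6k kinases and without pseudogenes), not by any measured value. They were 60 of the 16593 named genes and 77 of the 25697 probes on the array. Of these, 37 genes with 49 probes encode large subunit proteins and 23 genes with 28 probes encode small subunit proteins. All 60 symbols were found in RefSeq, on 17 chromosomes. Ribosomal protein genes without a probe under such a symbol were not analysed here.

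The study asked which RNA and DNA microvesicles from cultured heart muscle cells carry, and how their RNA compares with that of the cells that shed them. The groups were microvesicle RNA (2 arrays), microvesicle DNA (1 array) and cell RNA (2 arrays). Cells and vesicles alike came from HL-1, an atrial cardiomyocyte line of the mouse that divides in culture, kept in Claycomb medium, and the labels name no treatment. All were therefore 1 line with 1 genotype, and no animal tissue was sampled. Total RNA was amplified to labelled cRNA. Terminal transferase put a poly-T end on the vesicle DNA, which made it possible to amplify and label it like RNA. The first chip carried microvesicle RNA array 1 with the 2 cell arrays, and microvesicle RNA array 2 shared the second with the DNA array. Whether the 2 extracts of a group came from separate cultures is not stated, so p-values reflect the spread of these particular samples, possibly technical.

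The large subunit joins amino acids at its peptidyl transferase centre, and the growing chain leaves through an exit tunnel lined by RNA and a few proteins. The small subunit holds the messenger RNA and matches its codons to transfer RNAs, with a head that swivels over a body and platform. Ribosomal protein transcripts are short, stable and among the most abundant of a mammalian cell. Most begin at their cap with a C and a run of pyrimidines, the terminal oligopyrimidine (TOP) tract, through which growth signals set their translation together.

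A run of C and T near the start is a sequence feature the choice by symbol did not use. It is shown for 6 members whose RNA values are given further on, 3 of each subunit. They were picked for a long run that lies fully within the window printed, so they are not typical members. Each line is a window of 30 bases, 5′ to 3′ on the gene's strand, around the RefSeq start of the gene in GRCm38.p6. Capitals mark the longest run of C and T near that start. The Rpl19 run ends before that start, and the other runs span it.
Rpl35: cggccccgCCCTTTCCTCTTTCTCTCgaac
Rpl35a: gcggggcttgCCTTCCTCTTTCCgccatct
Rpl19: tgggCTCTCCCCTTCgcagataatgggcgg
Rps10: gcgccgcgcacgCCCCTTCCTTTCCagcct
Rps6: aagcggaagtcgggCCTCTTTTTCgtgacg
Rps24: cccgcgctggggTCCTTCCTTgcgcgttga
The windows lie at chr2:39005117-39005146 on the minus strand (Rpl35), chr16:33056467-33056496 on the plus strand (Rpl35a), chr11:98026909-98026938 on the plus strand (Rpl19), chr17:27635230-27635259 on the minus strand (Rps10), chr4:86857353-86857382 on the minus strand (Rps6) and chr14:24490663-24490692 on the plus strand (Rps24). A run was counted if it had at least 8 C or T bases and overlapped the 15 bases on either side of the start. It could extend beyond them. Of the 51 members with a promoter entry, 25 (49.0%) had such a run, against 5416 of all 27025 genes (20.04%). The large and small subunit were alike in this count, with 15 of 30 large and 10 of 21 small subunit genes. The letters CCGGAA, the core of ETS factor sites, stood on either strand of the promoter window (250 bases before to 50 after the start) of 27 of the 51 members (52.9%) and of 16.7% of all genes. GCCATNTT, known as the core of YY1 sites, was found in 10 members (19.6%) and in 6.96% of all genes. TATAAA was found in 5 members (9.80%) and in 15.7% of all genes. Both strands were read for these 3 motifs, none of which contains another, though matches may overlap each other or the C and T run. A match is a description and not a site. Tested members with the C and T run had a median microvesicle minus cell difference of 2.48 log2 units (18 genes), and those without it one of 2.14 (22 genes).

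A probe's raw signal is its mean bead intensity on a linear scale, and a probe counted as detected at a detection p under 0.01 against negative controls. On microvesicle RNA arrays 1 and 2, 47 and 61 of the 77 ribosomal protein probes were detected, against 54 and 51 on cell arrays 1 and 2. For the large subunit these were 25 and 37 of 49 probes in microvesicles, against 31 and 29 in cells. For the small subunit they were 22 and 24 of 28 probes in microvesicles, against 23 and 22 in cells. Detection on all 4 RNA arrays was reached by 24 large and 20 small subunit probes. Another 9 probes, 7 large and 2 small, were detected on microvesicle array 2 and on no other RNA array. Of the RNA arrays it also detected the most over all probes, 5605 of 25697. The share of all probes detected on it alone was not counted, so the 9 are not read as a trait of these genes. No RNA array detected 11 large and 3 small subunit probes.

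Over all 25697 probes, microvesicle RNA arrays 1 and 2 detected 2024 and 5605, the DNA array 343, and the cell RNA arrays 4179 and 3629. Median raw signals were 63.0 and 90.9 in microvesicle RNA, 70.2 in DNA, and 63.6 and 62.6 in cell RNA. The ribosomal protein probes rested on 22 to 64 beads each. Microvesicle array 2 thus stood apart in background and detection, and it was the 1 RNA array on its chip, so array and chip cannot be told apart. Normalized log2 values correlated across tested probes at r = 0.58 between the microvesicle arrays and at 0.99 between the cell arrays. Of 10 heart muscle marker genes, 7 had a probe detected on both cell arrays. Ryr2, Pln and Tnni3 had none there. No fibroblast marker (of 6) or red cell marker (of 3) had a tested probe, and 1 of 5 endothelial (Tek) and 1 of 5 leukocyte markers (Lyz1) did. In bulk extracts, fewer vesicles and less RNA per vesicle cannot be told apart, so every value is relative to the other signals of its array.

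Between microvesicle and cell RNA, most ribosomal protein transcripts lay higher in microvesicles in normalized signal, in both subunits. A gene is called wholly above the cells where each microvesicle value exceeded each cell value, and wholly below them in the opposite case. After quantile normalization, 35 of the 48 tested genes lay wholly above the cells, where 14.9% of all 3123 tested genes did so. These were 19 of 28 large subunit genes (67.9%) and 16 of 20 small subunit genes (80.0%). Rpl23a alone lay wholly below the cells, where 50.3% of all tested genes did, and 12 members overlapped. Of the 35, 6 were not detected on microvesicle array 1, and in raw signal 12 of the 35 exceeded both cell arrays there and 34 on array 2. The median difference, microvesicle minus cell, was 2.20 log2 units over the 48 genes and -0.84 over all tested genes.

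A gene entered the test if 2 or more of the 4 RNA arrays detected a probe of it, and its brightest such probe stood for it. That left 54 probes of 48 genes, 28 large and 20 small. Of the tested probes, 7 were not detected on microvesicle array 1, those of Rpl3, Rpl5, Rpl12, Rpl36a, Rpl39, Rplp0 and Rps27l, so there the group has 1 array with a detected signal. Cell array 2 did not detect the probes of Rpl12 and Rpl36a, which leaves these 2 genes with 1 detected array in each group. It also missed the dimmer Rps3 probe. Microvesicle array 2 did not detect the tested Rpl21 probe or the dimmer Rps19 probe. A further 12 genes were not tested. Of these, Rpl4, Rpl7a, Rpl13a, Rpl27a and Rps15a were detected on microvesicle array 2 alone, at raw signals of 183 to 792. Rpl6, Rpl14, Rpl17, Rpl39l, Rplp2, Rps23 and Rpsa were detected on no RNA array.

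No ribosomal protein probe passed an adjusted p of 0.05 in limma (Benjamini-Hochberg over 3878 probes), in either direction, where the share of all tested probes called was 0% in each. At an unadjusted limma p under 0.05, 19 of the 54 probes were higher, 8 large and 11 small, where 5.52% of all tested probes were. None of the 54 was lower at that level, where 23.2% of all tested probes were. The smallest adjusted p of a member was 0.0917, for Rpl34. The microvesicle arrays differed widely from each other. Without microvesicle array 2, limma called 45 of the 54 probes higher and 1 lower (968 and 1735 of all probes). With array 1 left out in its place, 38 were called higher and 14 lower (671 and 2720 of all probes). With 1 microvesicle array left, the spread in those fits comes from the cell arrays alone, and the lone array is assumed to vary as they do.

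**Figure D1:**
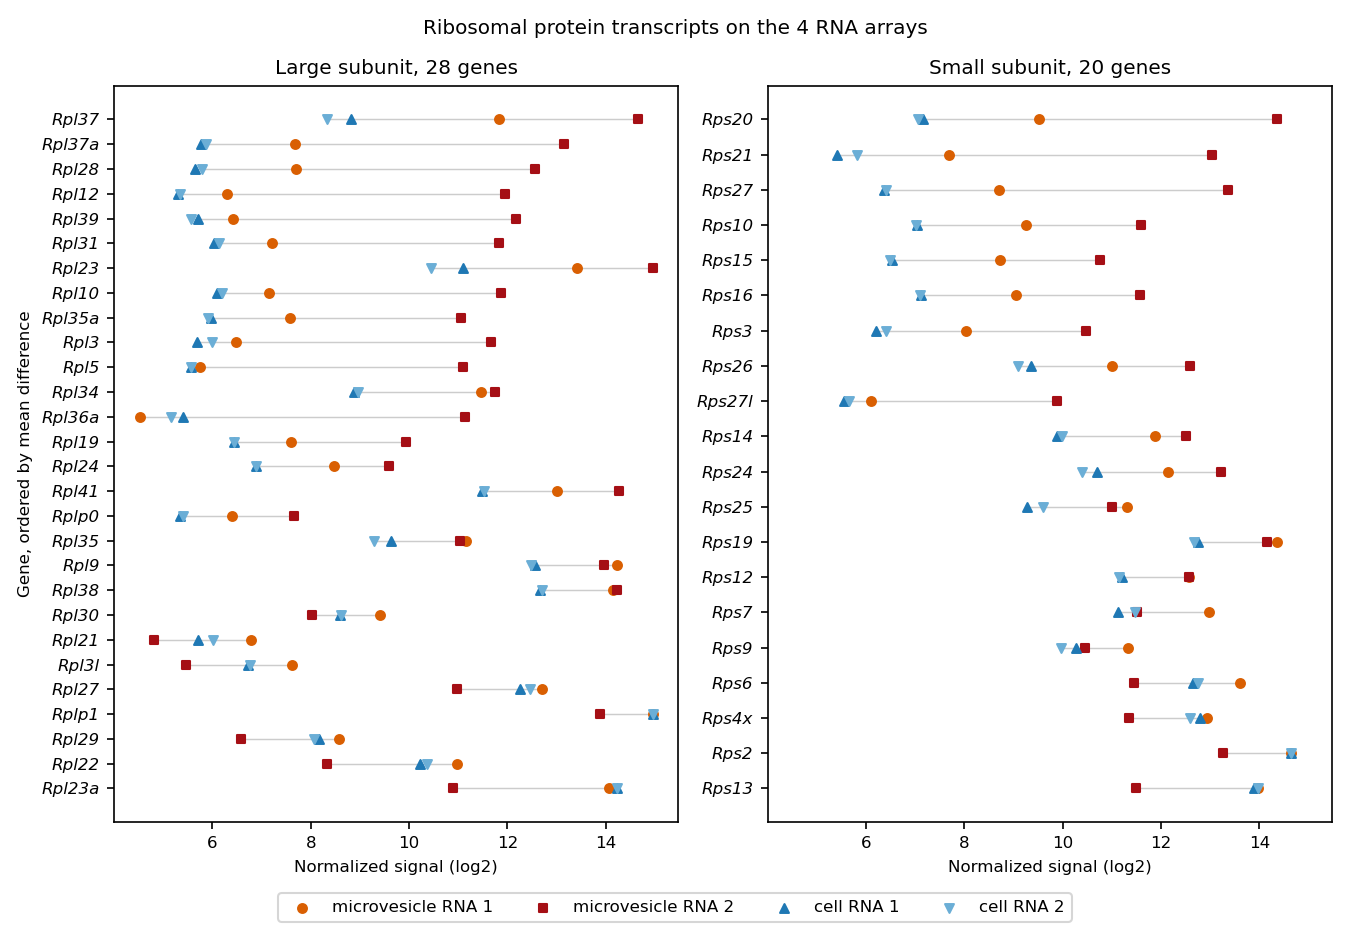
Normalized log2 signal (x axis) of the 48 tested genes, large subunit on the left and small on the right, ordered down the page by mean difference, with 1 symbol for each RNA array. The 2 cell arrays lie close together in nearly every row, while microvesicle array 2 lies far to the right in the upper rows and to the left in the lowest.

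The large and small subunit were set against each other by the median difference of their genes. It was 2.23 log2 units for the 28 large subunit genes (quartiles 0.07 and 3.38) and 2.19 for the 20 small subunit genes (quartiles 0.90 and 3.21), a gap of 0.040. On microvesicle array 1 the medians against the cell mean were 1.02 for large and 1.70 for small subunit genes, a gap of -0.68. On microvesicle array 2 they were 2.79 and 2.62, a gap of 0.17. The gap thus took opposite signs on the 2 arrays, and its SD between them was 0.60, larger than its mean. Cell array 1 minus cell array 2 gave medians of -0.025 for large and 0.007 for small subunit genes. The gap between the subunits lay within the spread between the microvesicle arrays.

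On microvesicle array 1, 44 of the 48 genes lay above the cell mean (25 large, 19 small), and on microvesicle array 2, 36 did (20 large, 16 small). Of all 3123 tested genes, 1241 did so on array 1 and 730 on array 2. How far they lay above it depended on the scaling. Microvesicle array 1 had fewer bright probes in all, and quantile normalization gives every array the same distribution. In raw signal, 12 of the 54 probes on microvesicle array 1 were above both cell arrays (22.2%, against 3.77% of the other 3824 tested probes). On microvesicle array 2, 40 were (74.1%, against 35.5%). With median scaling in place of quantile normalization, 14 genes lay wholly above the cells (8 large, 6 small) and 12 below (8 large, 4 small). Over all tested genes that scaling put 87 above and 2066 below. The members' median was then 1.31 and that of all genes -1.28, so relative to all genes the members stood 2.58 log2 units higher, where quantile normalization gave 3.04. The values and counts by role that follow are those under quantile normalization unless median scaling is named.

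**Figure D2:**
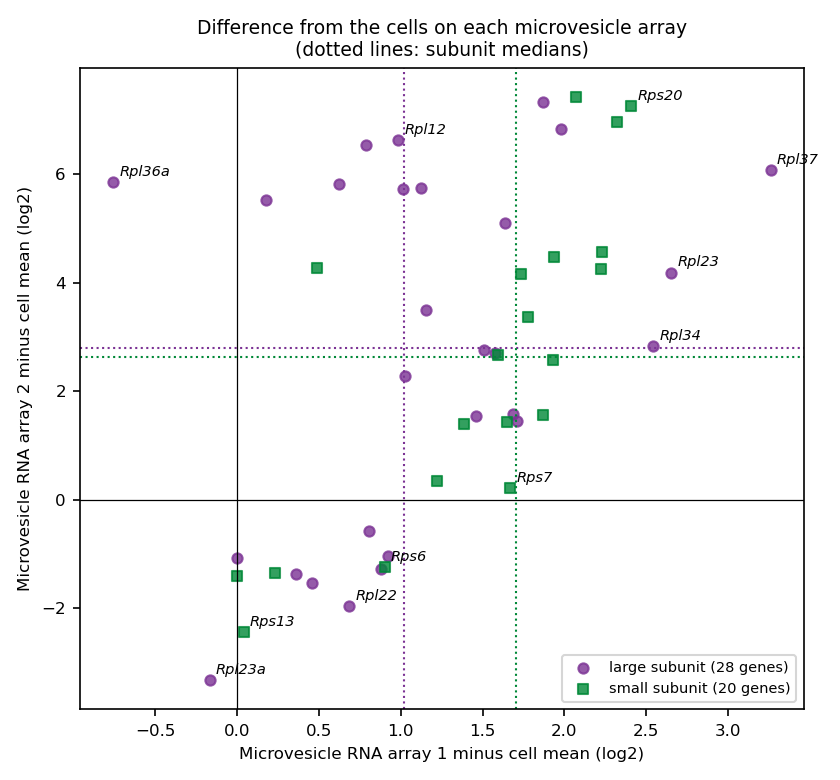
Difference from the cell mean in normalized log2 units on microvesicle array 2 (y axis) against microvesicle array 1 (x axis) for the 48 tested genes, coloured by subunit, with dotted lines at the subunit medians. Under quantile normalization most of the points lie above 0 on both axes, and large and small subunit genes are intermixed.

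Among the bright raw signals, ribosomal protein probes were common on microvesicle array 2. A raw signal over 1000 was reached by 17 and 44 of the 54 tested probes on microvesicle arrays 1 and 2, by 1 on the DNA array, and by 19 and 18 on the cell arrays. Of the 31 large subunit probes these were 8 and 23 in microvesicle RNA, against 9 and 8 in cells, and of the 23 small subunit probes 9 and 21, against 10 in each cell array. Among the other 3824 tested probes the counts were 56 and 201 in microvesicle RNA, against 398 and 308 in cells. On microvesicle array 2, 22 ribosomal protein probes (13 large, 9 small) were over 10 times their signal on each other RNA array, up to 99.9 times for Rps20. The same held for 79 of the other 3824 probes. Of the 20 brightest probes of an array, ribosomal protein probes were 10 and 14 on the microvesicle RNA arrays, against 4 on each cell array.

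The members were also divided by their raw signal in cells, which enters the difference itself. The 28 probes under a raw signal of 250 on both cell arrays, a limit chosen after the values were seen, had a median difference of 1.37 log2 units on microvesicle array 1 and 4.83 on array 2. None of them passed 1000 raw on microvesicle array 1, and 22 did on array 2. The 26 brighter probes had medians of 1.42 and 0.87, and 17 and 22 of them passed 1000. Among the other tested probes the medians on microvesicle array 2 ran the same way, with -0.97 for 2426 that were as dim in cells and -2.76 for 1398 that were brighter. On that array 81 of the 2426 (3.34%) and 120 of the 1398 (8.58%) passed 1000. What makes a dim probe of a transcript bright on 1 array was not tested.

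**Figure D3:**
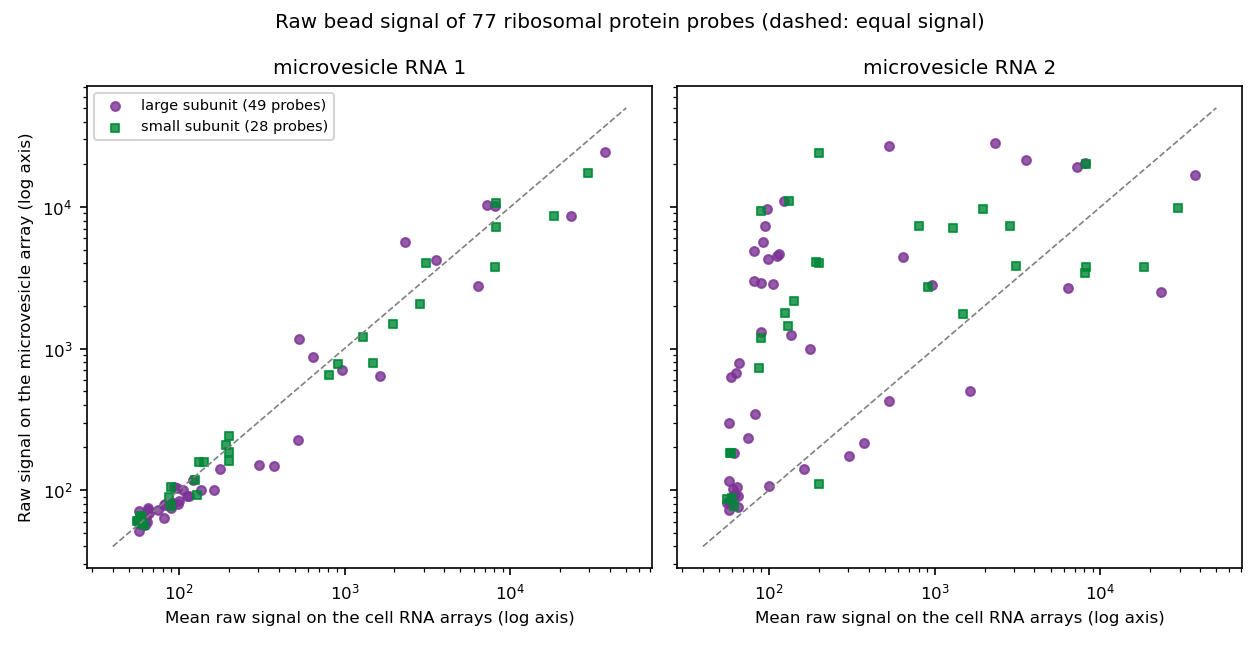
Raw signal of each microvesicle RNA array (y axis, log scale) against the mean raw signal of the cell arrays (x axis, log scale) for the ribosomal protein probes, by subunit, with array 1 and array 2 in separate panels and a dashed line of equal signal. On array 1 the points follow the cells, and on array 2 many probes that are dim in cells stand above 1000.

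The stalk is the arm of the large subunit that recruits elongation factors. Of its 4 proteins, 3 were tested, and 2 lay wholly above the cells, none of the 3 under median scaling. Rpl12, which forms the stalk base, had normalized log2 values of 6.30 and 11.95 on microvesicle arrays 1 and 2, against 5.30 and 5.34 on cell arrays 1 and 2. Its difference was 3.81 ± 2.14 (SE, n = 2 arrays a group, limma adjusted p = 0.311), with only microvesicle array 2 and cell array 1 above background. In raw signal array 1 had 78.9, between the 84.2 and 78.1 of the cell arrays. Rplp0, the stalk scaffold, differed by 1.65 ± 0.57. Rplp1, an acidic stalk tip protein, was among the brightest probes of every RNA array. It had 14.96 and 13.89 in microvesicles, against 14.96 and 14.96 in cells, with a difference of -0.53 ± 0.51 (adjusted p = 0.51). It was the brightest probe on microvesicle array 1 and on both cell arrays, so quantile normalization gave it 1 value on all 3. In raw signal it had 24418 and 16911 in microvesicles, against 39095 and 35695 in cells, so both microvesicle arrays lay below the cells.

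Rpl5, which carries the 5S ribosomal RNA into the large subunit, lay above the cells mainly on microvesicle array 2 and was not detected on array 1. It had 5.75 and 11.10 in microvesicles, against 5.57 and 5.56 in cells, a difference of 2.85 ± 2.03. Both tested proteins next to the peptidyl transferase centre had the same pattern. Rpl3, a core protein of that centre, had 6.47 and 11.67 in microvesicles, against 5.70 and 5.9998 in cells, and differed by 3.22 ± 1.97 (adjusted p = 0.341). In raw signal Rpl3 had 80.2 and 4294 in microvesicles, against 101 and 97.0 in cells, and array 1 did not detect it. Rpl10, one of the last proteins to join the large subunit, had 7.15 and 11.87 in microvesicles, against 6.09 and 6.19 in cells, and differed by 3.37 ± 1.79. In raw signal Rpl10 had 90.2 and 4641 in microvesicles, against 125 and 106 in cells, so its higher place on microvesicle array 1 came only after normalization.

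Around the exit tunnel, 6 of the 8 genes on the array were tested, and they divided. Rpl19, Rpl31, Rpl35 and Rpl39 lay wholly above the cells, none of them under median scaling, with differences of 2.32 ± 0.93, 3.43 ± 1.76, 1.63 ± 0.35 and 3.66 ± 2.17 (SE). Rpl35 was the steadiest of these in normalized signal, with 1.69 on microvesicle array 1 and 1.57 on array 2. Its raw signals were 702 and 2825 in microvesicles, against 1214 and 720 in cells, so there array 1 lay below both cell arrays. Rpl23a, a docking site of the signal recognition particle, was the 1 tested member below the cells on both arrays in normalized signal. It had 14.06 and 10.90 on microvesicle arrays 1 and 2, against 14.23 and 14.23 on cell arrays 1 and 2. Its difference was -1.75 ± 1.22 (adjusted p = 0.391), made up of -0.17 on microvesicle array 1 and -3.32 on array 2. Rpl22, an RNA-binding protein needed for alpha-beta T cell development in mice, had 10.98 and 8.33 in microvesicles, against 10.23 and 10.36 in cells. In normalized signal its microvesicle arrays lay on either side of the cells, and the difference was -0.64 ± 1.04. In raw signal both lay below the cells, with 640 and 497 against 1774 and 1503. Under median scaling 2 of the 6 tested exit tunnel genes lay wholly below the cells.

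The highest differences of the large subunit were those of Rpl37, Rpl37a, Rpl28 and Rpl12. Rpl37, a zinc-binding protein, had 11.83 and 14.65 on microvesicle arrays 1 and 2, against 8.81 and 8.33 on cell arrays 1 and 2. It lay above the cells by 3.26 on microvesicle array 1 and by 6.08 on array 2, a mean of 4.67 ± 1.12 (limma adjusted p = 0.116). Its raw signals were 1176 and 26957.5 on microvesicle RNA arrays 1 and 2, 90.6 on the DNA array, and 693 and 372 on cell RNA arrays 1 and 2. Rpl37a, also a zinc-binding protein, had 7.68 and 13.14 in microvesicles, against 5.76 and 5.86 in cells, and differed by 4.60 ± 2.07 (adjusted p = 0.246). Rpl28, a protein that mammals have and budding yeast lacks, had 7.70 and 12.56 in microvesicles, against 5.65 and 5.79 in cells, and differed by 4.41 ± 1.85 (adjusted p = 0.225). In all 3 genes the microvesicle arrays lay above the cell arrays with no overlap, and further from each other than the cell arrays from each other.

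In some large subunit genes the microvesicle arrays lay closer together. Rpl34, singled out after its values were seen, had 11.46 and 11.75 on microvesicle arrays 1 and 2, against 8.88 and 8.95 on cell arrays 1 and 2, and its difference was 2.69 ± 0.34. Rpl38, known from the mouse Tail short mutant and from translation of Hox transcripts, had 14.15 and 14.23 in microvesicles, against 12.67 and 12.71 in cells by its brightest probe, and differed by 1.50 ± 0.32 (adjusted p = 0.104). Rpl9 had 14.23 and 13.97 in microvesicles, against 12.56 and 12.47 in cells, and differed by 1.58 ± 0.34. Rpl41, the shortest ribosomal protein, had 13.01 and 14.26 in microvesicles, against 11.49 and 11.53 in cells, and differed by 2.13 ± 0.57 (adjusted p = 0.127). All 4 genes lay above the cells on both microvesicle arrays.

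The remaining large subunit genes are given to account for every member. Rpl24 and Rpl35a lay above the cells on both microvesicle arrays in normalized signal, with differences of 2.14 and 3.37. In raw signal microvesicle array 1 did not exceed both cell arrays in either. It had 140 against 200 and 153 for Rpl24, and 100.2 against 118 and 93.8 for Rpl35a. Rpl21, Rpl27 and Rpl30 overlapped the cell values, with -0.059, -0.51 and 0.11, and Rpl30 turned to -0.99 under median scaling. Rpl29 overlapped too, and its brightest probe had 8.57 and 6.58 in microvesicles, against 8.16 and 8.06 in cells, and differed by -0.54 ± 0.81. In normalized signal each of these 4 lay above the cell mean on microvesicle array 1 and below it on array 2. In raw signal Rpl27, Rpl29 and Rpl30 lay below both cell arrays on both microvesicle arrays. They had 2750 and 2654 against 6715 and 5971, 148 and 215 against 445 and 306, and 226 and 427 against 609 and 445. Rpl21 had 83.8 and 107 raw, against 101 and 97.8, and microvesicle array 2 did not detect it.

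In the small subunit, all 8 tested head proteins lay wholly above the cells, where 35 of the 48 members and 14.9% of all tested genes did. Their median difference was 3.08 log2 units, and under median scaling 3 of the 8 lay wholly above the cells. Rps20 had 9.51 and 14.36 on microvesicle arrays 1 and 2, against 7.16 and 7.05 on cell arrays 1 and 2. It differed by 4.83 ± 1.84 (adjusted p = 0.201), the highest value of any member, with 2.41 on microvesicle array 1 and 7.26 on array 2. Its raw signals were 240.2 and 23996 on microvesicle RNA arrays 1 and 2, 75.02 on the DNA array, and 235 and 167 on cell RNA arrays 1 and 2. Rps10, which sits near the messenger RNA entry, had 9.26 and 11.59 in microvesicles, against 7.04 and 7.01 in cells, and differed by 3.40 ± 0.93 (limma adjusted p = 0.132). Rps19, the gene most often mutated in Diamond-Blackfan anaemia, an inherited failure of red cell production, had 14.36 and 14.15 in microvesicles, against 12.76 and 12.67 in cells by its brightest probe. It differed by 1.54 ± 0.33 (adjusted p = 0.104).

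The other head proteins were Rps3, Rps12, Rps15, Rps16 and Rps25, with differences of 2.95 ± 0.97, 1.39 ± 0.32, 3.24 ± 0.82, 3.21 ± 1.001 and 1.72 ± 0.36 (SE). In normalized signal Rps12 was nearly equal on the 2 microvesicle arrays, at 1.38 and 1.40 above the cell mean. Its raw signals were 2073 and 7318 in microvesicles, against 3308 and 2416 in cells. Before normalization, microvesicle array 1 thus lay below both cell arrays and array 2 above both. At an unadjusted limma p under 0.05, 7 of the 8 head genes were higher, where 10 of the 20 tested small subunit genes were. By gene, 18 of the 48 tested members and 181 of all 3123 tested genes were higher at that level. None of the 8 passed the adjusted test.

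Of 11 tested proteins of the small subunit body and platform, 7 lay wholly above the cells (63.6%, against 72.9% of all members and 14.9% of all tested genes). None lay wholly below, where 50.3% of all tested genes did, and 4 overlapped. Their median difference was 0.94, and under median scaling 3 lay wholly above the cells and 4 wholly below. Rps21 had 7.69 and 13.05 on microvesicle arrays 1 and 2, against 5.42 and 5.82 on cell arrays 1 and 2, and differed by 4.75 ± 2.03 (adjusted p = 0.231). Rps27, a zinc-binding protein, had 8.71 and 13.36 in microvesicles, against 6.37 and 6.41 in cells, and differed by 4.65 ± 1.77 (adjusted p = 0.201). Rps7, Rps9, Rps14, Rps24 and Rps26 were the other 5 above the cells, with differences of 0.94, 0.78, 2.26, 2.13 and 2.57, of which Rps9 turned to -0.39 under median scaling. The 4 that overlapped were Rps2, Rps4x, Rps6 and Rps13, all among the brightest small subunit probes.

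Rps13 had 13.97 and 11.49 on microvesicle arrays 1 and 2, against 13.89 and 13.97 on cell arrays 1 and 2, and its difference of -1.20 ± 0.98 was the lowest of the small subunit. Rps2, which lines the messenger RNA entry, had 14.65 and 13.25 in microvesicles, against 14.65 and 14.65 in cells, and differed by -0.70 ± 0.61. Rps4x, encoded on the X chromosome, had 12.93 and 11.35 in microvesicles, against 12.80 and 12.59 in cells, and differed by -0.56 ± 0.68. Rps6, the substrate of S6 kinase, had 13.61 and 11.46 in microvesicles, against 12.65 and 12.76 in cells, and differed by -0.17 ± 0.87. In normalized signal microvesicle array 2 lay below both cell arrays in each of the 4 and array 1 did not. Rps2 ranked 2 on 3 of the RNA arrays, all but microvesicle array 2, and quantile normalization ties it on these. In raw signal array 1 lay below both cell arrays in all 4, with 17423 against 29702.5 and 29240.1 for Rps2, 8594 against 19377 and 17165 for Rps13, 3757 against 9264.5 and 6935 for Rps4x, and 7174 against 8794 and 7482 for Rps6. Of the 10 genes listed for Diamond-Blackfan anaemia, 7 were on the array, and all 7 lay wholly above the cells, where 72.9% of all members and 14.9% of all tested genes did. Their median was 2.57, 1 of them (Rpl5) was not detected on microvesicle array 1, and under median scaling 2 of the 7 lay wholly above the cells.

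Paralogs of ribosomal proteins, which replace or resemble a member in some tissues, were described in the same way. Rpl3l, the muscle form of Rpl3, had 7.62 and 5.46 in microvesicles, against 6.72 and 6.76 in cells. It differed by -0.20 ± 0.87, with the microvesicle arrays on either side of the cells in normalized signal. In raw signal both lay below the cells, with 101 and 140 against 182 and 142. Rps27l, a p53-induced relative of Rps27, had 6.09 and 9.88 in microvesicles, against 5.56 and 5.65 in cells, and differed by 2.38 ± 1.45. Rpl36a had 4.52 and 11.14 in microvesicles, against 5.40 and 5.16 in cells. It was below the cells on microvesicle array 1, where it was not detected, and far above them on array 2, a difference of 2.55 ± 2.50. Its relative Rpl36al, outside the choice by symbol, had 13.25 and 11.29 in microvesicles, against 13.23 and 13.05 in cells, a difference of -0.87 ± 0.80. Rpl39l, Rpl22l1 and Rpl7l1 were not tested. Probes of near-identical copies can share signal, and 47 of the 60 members have at least 1 pseudogene named after them in RefSeq.

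Several probes of 1 gene gave different answers. Of the members, 14 had several probes (31 in all), but 6 had more than 1 tested. In 3 of these 6 the tested probes differed in sign, where 26.9% of the 439 genes with several tested probes did. For Rpl29 the brightest probe gave -0.54 ± 0.81 and the other 2.71 ± 1.29. The second probe had raw signals of 82.3 and 1313 on microvesicle RNA arrays 1 and 2, 86.5 on the DNA array, and 93.6 and 86.6 on the cell arrays. The probes of Rpl38 gave 1.50 ± 0.32 and -0.45 ± 1.01, and those of Rps19 gave 1.54 ± 0.33 and -0.31 ± 1.48. The second Rpl38 probe had raw signals of 150.2 and 175 in microvesicle RNA, against 347 and 259 in cells. The second Rps19 probe had 160 and 109.7, against 215 and 188. Microvesicle array 2 did not detect that Rps19 probe, which differed by 1.62 on array 1 and by -2.25 on array 2.

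Rps3, Rps9 and Rpl23 had tested probes of like sign. The probes of Rps3 gave 2.95 ± 0.97 and 2.65 ± 0.81, and those of Rps9 gave 0.78 ± 0.47 and 2.35 ± 1.11. Rpl23, a protein at the face where the subunits meet that also binds Mdm2, had 4 probes. The brightest had raw signals of 5691.4 and 28245.5 on microvesicle RNA arrays 1 and 2, 7242 on the DNA array, and 3075 and 1562 on cell RNA arrays 1 and 2. It differed by 3.42 ± 0.70 (limma adjusted p = 0.101). The next had 118 and 11053 on the microvesicle RNA arrays, 69.6 on the DNA array, and 133 and 112 on the cell arrays, and differed by 4.49 ± 2.03. The other 2 stayed at or under 184 on every array. Rpl37 likewise had 1 bright probe and 2 that stayed at or under 92.7 on every array.

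**Figure D4:**
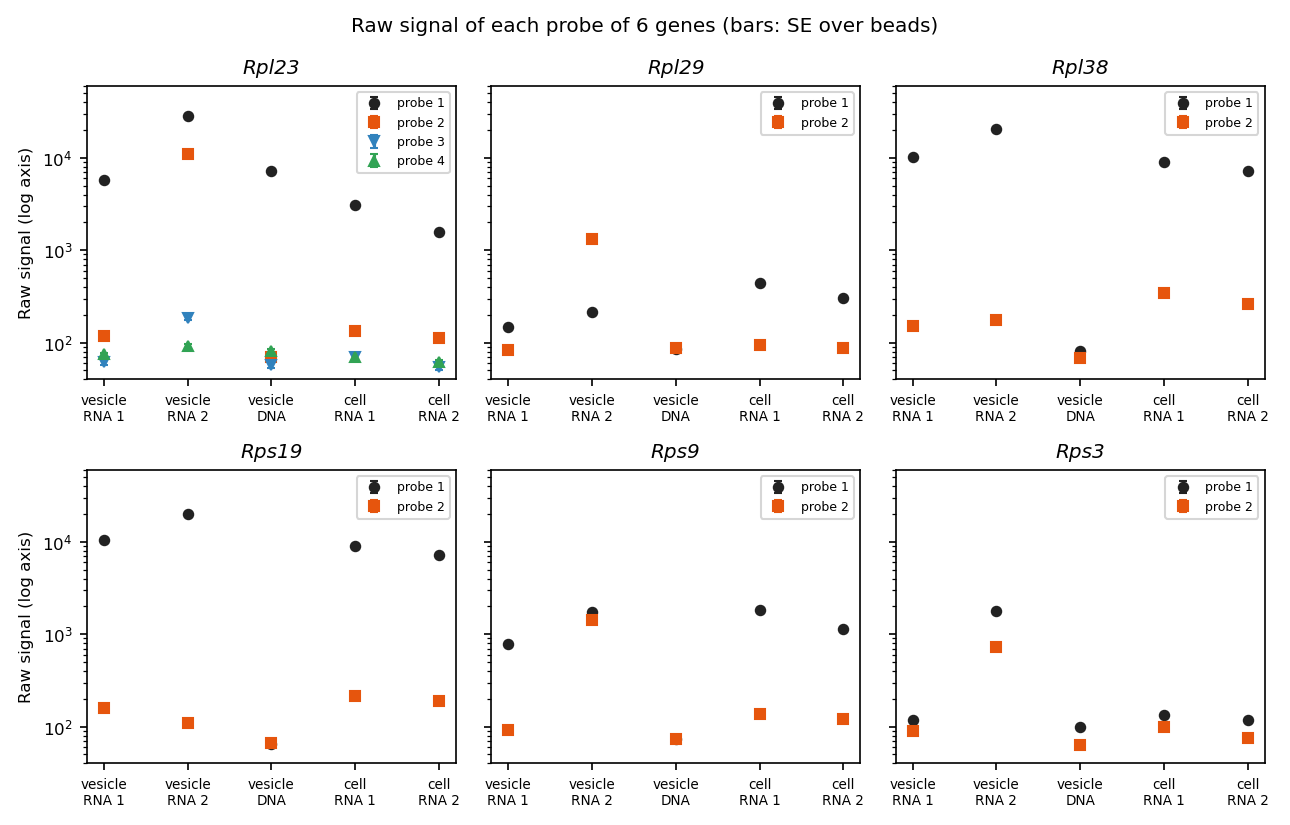
Raw signal (y axis, log scale) on the 5 arrays (x axis) of each probe of the 6 genes with several tested probes, with bars for the standard error over beads, mostly smaller than the symbols. In Rpl29, Rpl38 and Rps19 the probes of 1 gene do not follow the same course over the arrays, and in Rpl23 the DNA array is high for the brightest probe and for no other.

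On the DNA array the ribosomal protein probes were near background, with 1 exception. Detected probes were 2 of 77 (2.60%, exact binomial 95% interval 0.316 to 9.07), against 1.33% of all 25697 probes (1.20 to 1.48). They were 1 of 49 large and 1 of 28 small subunit probes. At a detection p under 0.05 they were 9 of 77 (11.7%), against 5.05% of all probes. The intervals cover counting error only. The median raw signal of the members was 71.0, and that of all probes 70.2.

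The exception was the brightest Rpl23 probe. Its raw signal of 7242 was the highest of the DNA array, where the next probe, one without a gene symbol, had 448. The same probe was the brightest of microvesicle RNA array 2 (28245.5), ranked 13 on microvesicle RNA array 1, and ranked 122 and 193 on the cell arrays. The second detected probe was that of Rps3, at 99.1 raw. The 10 next brightest member probes of microvesicle RNA array 2, at 9777 to 26957.5 raw there, had 65.5 to 90.7 on the DNA array, and none of them was detected. Both arrays were on the second chip, and with 1 DNA array there is no replicate check.

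**Figure D5:**
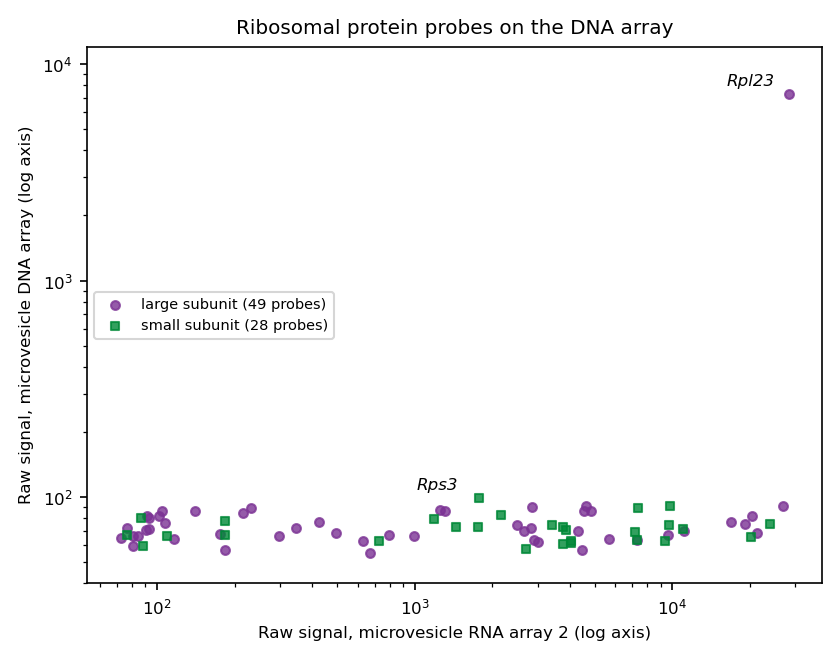
Raw signal on the microvesicle DNA array (y axis, log scale) against raw signal on microvesicle RNA array 2 (x axis, log scale) for the 77 ribosomal protein probes, by subunit. All but the Rpl23 probe at 7242 lie between 55.3 and 99.1 on the DNA array, whatever their RNA signal.

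Other genes of protein synthesis were set beside the ribosomal proteins. Of 17 other TOP genes on the array, mostly translation factors, 11 were tested. Of these, 4 lay wholly above the cells (36.4%, against 14.9% of all tested genes) and 2 wholly below (18.2%, against 50.3%), with a median of -0.27 log2 units. Under median scaling none lay wholly above the cells and 6 wholly below. Npm1, a nucleolar chaperone of ribosome assembly, had 5.27 and 11.34 in microvesicles, against 5.38 and 5.08 in cells, a difference of 3.08 ± 2.29. Only microvesicle array 2 and cell array 1 detected it. Eef2, the elongation factor that moves the ribosome along, had 9.09 and 7.43 in microvesicles, against 9.91 and 10.31 in cells by its brightest probe, and differed by -1.86 ± 0.71. Pabpc1, the poly(A)-binding protein, gave -1.87 ± 0.80 by its brightest probe and 1.91 ± 1.86 by another. Microvesicle array 2 did not detect the brightest probe, and only microvesicle array 2 and cell array 1 detected the other. Fau, which encodes a ubiquitin-like fusion with Rps30, had 13.89 and 11.93 in microvesicles, against 12.47 and 12.36 in cells, a difference of 0.50 ± 0.80 that turned to -0.22 under median scaling. None of these differences passed the test.

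Of 27 genes that build ribosomes, 3 were tested. Microvesicle RNA arrays 1 and 2 detected 2 and 14 of the 27, against 4 and 3 on the cell arrays. The 3 tested genes were each detected on both cell arrays, and most of those detected on microvesicle array 2 were not tested. Fbl, which methylates ribosomal RNA, had 9.91 and 5.93 in microvesicles, against 11.08 and 11.18 in cells, a difference of -3.21 ± 1.53 (limma adjusted p = 0.261). Nat10, an RNA acetyltransferase, was not detected on either microvesicle array. Its background values of 5.47 and 4.48 there lay below the 5.55 and 5.53 of the cells. The lowest detected value of microvesicle array 1 was 6.51, above these cell values, so Nat10 cannot be placed below the cells on that array. Rrp9, a nucleolar protein, differed by -0.35 ± 0.91, and microvesicle array 2 did not detect it. No list of this kind was put to a test of its own, and their medians stand beside -0.84 for all tested genes.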

How the data were processed

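RNA and DNA arrays of 1 colour were analysed. In the unnormalized table each probe has, per the file headers, a linear intensity averaged over its beads, a detection p-value as deposited, the deposited number of beads as a count, and the bead standard error as a deposited signal. The submitters' processing notes name BeadStudio 3.3. The authors also deposited background-subtracted intensity values, normalized by a method not given in the sources used here and used only as an alternative.

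Raw intensities of the 4 RNA arrays were corrected and quantile-normalized with neqc (limma 3.58.1, R 4.3.3, offset 16), with negative controls inferred from the detection p-values. The offset compresses differences of dim probes. For probes that 2 or more RNA arrays detected (p under 0.01), lmFit and eBayes gave two-sided tests, without a block, with Benjamini-Hochberg adjustment over all 3878 and a threshold of 0.05. The script was tested on simulated data. A gene's probe of highest mean stood for it, and differences are microvesicle minus cell. Signals of different probes are not abundances. Symbols come from the platform annotation. Promoter sequences are those of RefSeq, GRCm38.p6, while probe and protein sequences and a genome were not used here.

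Members, role lists and tests were chosen with earlier results of these data known. Named in full were the brightest genes (5 per subunit), the 4 highest and 4 lowest differences per subunit, members with probes of opposite sign or detected on the DNA array, paralogs, and up to 3 genes per other list. Alternatives covered background, scaling, filter, variance trend, blocks and each left-out array.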

Additional observations from a re-analysis of the deposited data

How the results depend on the processing

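Depth of evidence was limited by 2 arrays a group, by microvesicle array 2 being the only RNA array on its chip, and by dim probes whose differences the offset compresses. Over all tested probes, limma called 0 higher and 0 lower. The counts became 7 and 1651 with median scaling, 5 and 1416 without normalization between arrays, 16 and 163 without the filter, 10 and 677 with a variance trend, and 968 and 1735 with the chip as a block. Leaving out each array in turn gave 0 to 968 higher and 0 to 2720 lower. Of the ribosomal protein probes, 3 were called higher without the filter (Rpl34, Rpl38 and Rps12), 1 with the trend (Rpl23) and 45 with the chip block, and 0 to 45 over the left-out arrays. Called lower were 2 with median scaling (Rpl22 and Rpl29), 1 without normalization (Rpl22), 1 with the chip block and 0 to 14 over the left-out arrays. The chip block leaves microvesicle array 1 alone against the cells, and so does leaving out array 2. Genes wholly above the cells numbered 14 with median scaling and 12 without normalization. Genes wholly below numbered 12 and 12 under these, 0 in the authors' processed values, 2 without the filter, 2 within the first chip, and 1 to 12 over the left-out arrays. The small subunit median was 1.03 with median scaling and 1.10 without normalization. The gap of large minus small was -0.68 within the first chip and -0.68 to 0.17 over the left-out arrays. On the DNA array 9 member probes passed a detection p under 0.05, and 7 genes had probes of opposite sign without the filter.

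Of 61 genes followed, 18 turned in sign under an alternative. With median scaling and without normalization these were Fau (-0.22 and -0.14), Lyz1 (-0.43 and -0.36), Rpl30 (-0.99 and -0.91), Rps9 (-0.39 and -0.31) and Tek (-0.52 and -0.45). In the authors' values they were Tek (-0.18) and Rps6 (0.20), and without background correction Rpl21 (0.040). With the chip block they were Myh6 (-0.13), Myl7 (-1.28), Rpl21 (0.92), Rpl22 (0.68), Rpl27 (0.36), Rpl29 (0.46), Rpl36a (-0.76), Rpl36al (0.12), Rpl3l (0.88), Rps13 (0.040), Rps4x (0.23), Rps6 (0.90) and Rrp9 (0.79). Over the left-out arrays the ranges were -0.48 to 1.48 (Fau), -1.38 to 2.21 (Lyz1), -0.13 to 1.29 (Myh6), -1.28 to 4.59 (Myl7), -1.04 to 0.92 (Rpl21), -1.96 to 0.68 (Rpl22), -1.37 to 0.36 (Rpl27), -1.53 to 0.46 (Rpl29), -0.58 to 0.81 (Rpl30), -0.76 to 5.86 (Rpl36a), -1.85 to 0.12 (Rpl36al), -1.29 to 0.88 (Rpl3l), -2.44 to 0.040 (Rps13), -1.35 to 0.23 (Rps4x), -1.25 to 0.90 (Rps6), -1.48 to 0.79 (Rrp9) and -1.03 to 1.13 (Tek). The cause was not tested, apart from the arrays each setting drops. Of the genes that turned, Tek was detected on neither microvesicle array. Lyz1, Rrp9 and Rpl21 were not detected on microvesicle array 2.

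Replicate numbers gave no pairing by the labels, and the deviations of same-numbered arrays correlated at -0.24 over 3878 probes. With the replicate block, limma's calls were 0 higher and 0 lower over all probes, and 0 and 0 among members. With crossed numbers as a block, chosen after the data were seen, it also called 0 and 0.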

Other observations

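Across the 48 tested members, normalized log2 values of microvesicle array 1 followed the cell mean (Pearson r = 0.96, Spearman rho = 0.97), while those of microvesicle array 2 did so weakly (r = 0.33, rho = 0.26). The 2 microvesicle arrays correlated at r = 0.44, and the 2 cell arrays at r = 0.998. These describe genes of shared arrays, which are not independent replicates. Pseudogenes named after members in RefSeq number 254 in all, and none of them is named after Rpl23 or Rps3, the members with a probe detected on the DNA array. By gene, the members lie most often on chromosome 7 (10 genes) and chromosome 9 (7 genes).

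After quantile normalization, 1 of 7 tested heart muscle markers lay wholly above the cells, 3 lay wholly below and 3 overlapped. Over all tested genes, 14.9% lay wholly above and 50.3% wholly below. The markers had a median difference of -0.11 log2 units (microvesicle minus cell). Under median scaling none of the 7 lay wholly above the cells and 1 wholly below, with a median of -0.53. The 1 above was Myl4 (0.50), and the 3 below were Tnnc1 (-2.88 ± 1.51, SE), Nkx2-5 (-0.34) and Nppa (-0.23), of which Myl4, Nkx2-5 and Nppa were named after their values were seen. Myh6 (0.58 ± 0.62) and Myl7 (1.65 ± 2.22) overlapped. Of those named here, Nkx2-5, Myh6 and Myl7 were not detected on microvesicle array 1. In raw signal Nkx2-5 had 172 on microvesicle array 2, above the 123 and 100.1 of the cell arrays. Raw Myl4 was 1404 on microvesicle array 1, below the 4906 and 3097 of the cell arrays. Raw Nppa was 250 on microvesicle array 2, between the 265 and 181 of the cell arrays. Tnnc1 lay below both cell arrays on both microvesicle arrays in raw signal too. None of the 7 markers passed the test, and their part in the ribosomal protein values was not tested.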
